A study of Mus musculus with 6 samples.

Results

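The metallothionein and zinc handling genes were read from 17 probes of an Illumina MouseWG-6 v2.0 bead array that the platform annotation assigns to 10 genes: Mt1, Mt2, Mt3, Mtf1, Slc30a1, Slc30a5, Slc30a7, Slc39a1, Slc39a7 and Slc39a10. All their probes among the 45281 of the table, which names 19057 genes, were taken whatever their values. The 10 genes themselves were chosen with earlier results of these data known, so their shares beside those of all probes are descriptive. The cells were AtT-20, a mouse pituitary tumour line of corticotropes, which store ACTH and other Pomc products in secretory granules. They carried rat PAM-1, a copper-dependent granule membrane enzyme that amidates peptides, under a doxycycline-inducible promoter. The doxycycline group held 3 arrays, 1 each from clones 14, 6_1 and 6_2 after 48 h with the drug, and the control group held 3 arrays from the same clones after 48 h in medium without it. All 6 cultures thus carried the transgene and were kept in tetracycline-free serum. Each clone gave 1 culture per medium, and the labels do not say whether clones 6_1 and 6_2 arose separately, so p-values measure the spread between these cultures. The drug and the induced enzyme cannot be told apart here, since no cells without the transgene were analysed. The labels give the dose as 4 µg/ml in one field and 4 mg/ml in another.

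Metallothioneins are small cysteine-rich proteins that hold zinc and copper ions in thiolate clusters and buffer their free levels. Of their genes, Mt1 and Mt2 are switched on by MTF1, a zinc finger factor that binds metal response elements in DNA when free zinc is high. The Slc30a (ZnT) proteins move zinc out of the cytosol, into organelles or out of the cell, and the Slc39a (ZIP) proteins move it into the cytosol. Several enzymes of the secretory pathway take up zinc there.

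The promoters of Mt1, Mt2, Mt3 and Slc30a1 are shown because MTF1 is known to act on Mt1, Mt2 and Slc30a1 in the mouse, and Mt3 had the highest mean difference between the media among the members. Each line gives the 250 bases before the RefSeq start in GRCm38.p6, 5′ to 3′ on the gene's strand, with matches to the metal response element core in capitals. The letters searched were TGCACNC and TGCGCNC on both strands, so that GNGTGCA or GNGCGCA marks a match on the other strand.
Mt1 (chr8:94178839-94179088, + strand): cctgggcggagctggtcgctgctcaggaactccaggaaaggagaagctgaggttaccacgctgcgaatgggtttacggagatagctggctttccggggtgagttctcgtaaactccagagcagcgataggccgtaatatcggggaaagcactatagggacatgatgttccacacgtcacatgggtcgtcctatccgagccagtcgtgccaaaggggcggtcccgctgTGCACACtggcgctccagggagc
Mt2 (chr8:94172368-94172617, + strand): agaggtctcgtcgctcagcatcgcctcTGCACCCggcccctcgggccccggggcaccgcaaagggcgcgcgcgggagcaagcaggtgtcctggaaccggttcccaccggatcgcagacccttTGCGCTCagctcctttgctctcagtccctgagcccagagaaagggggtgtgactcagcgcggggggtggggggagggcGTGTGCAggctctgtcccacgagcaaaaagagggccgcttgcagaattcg
Mt3 (chr8:94152357-94152606, + strand): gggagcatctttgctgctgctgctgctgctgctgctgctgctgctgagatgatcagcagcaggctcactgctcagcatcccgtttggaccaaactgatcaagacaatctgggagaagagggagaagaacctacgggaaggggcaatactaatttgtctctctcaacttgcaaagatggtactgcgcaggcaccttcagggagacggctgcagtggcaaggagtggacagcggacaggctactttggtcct
Slc30a1 (chr1:191906531-191906780, + strand): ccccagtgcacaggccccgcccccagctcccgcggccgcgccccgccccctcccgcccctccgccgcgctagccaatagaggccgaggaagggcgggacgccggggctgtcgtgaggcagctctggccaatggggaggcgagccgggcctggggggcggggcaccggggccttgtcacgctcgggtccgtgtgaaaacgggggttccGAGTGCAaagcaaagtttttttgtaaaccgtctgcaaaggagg
The Mt2 window held 3 matches, the Mt1 and Slc30a1 windows 1 each and the Mt3 window 0. These counts depend on the annotated RefSeq start, and the start used in these cells was not measured. A window may therefore miss part of a promoter, and its count does not rank the genes. Of all 32851 RefSeq windows of that length 21.4% held at least 1 match and 5.17% at least 2. In the next 50 bases Mt1 had 2 further matches, within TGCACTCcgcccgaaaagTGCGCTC (chr8:94179091-94179115), and Mt2, Mt3 and Slc30a1 had 1 each. The core lay in 1 more member window, that of Slc30a5 with 1 match. In the RefSeq annotation Mt4, Mt3, Mt2 and Mt1 follow each other on chromosome 8 between Bbs2 and Nup93. A match is a run of letters and was not measured as a bound site, and the sequences of the array probes themselves were not used here.

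Levels below are log2 intensities after background correction and quantile normalisation. A probe counted as above background at a detection p under 0.01, and the 16902 probes above it on at least 3 of the 6 arrays were tested. Of the 17 member probes 16 were tested, covering all 10 genes, and 14 were above background on all 6 arrays. The remaining probe, ILMN_1239029 of Slc30a7 on the cDNA AK039587, was above background on 0 arrays. From 35.8% to 37.9% of all probes were above background per array, with 16464, 16196 and 16217 probes on the doxycycline arrays against 17147, 16851 and 17149 on the control arrays, and the part of this gap in the results was not tested. Clone 6_1 in control medium lay away from the rest, at 56.5 on the first principal component against -33.7 to 18.7 for the others. Correlations between arrays ran from 0.940 to 0.989, and precision is limited by having 6 arrays. Of the corticotrope markers Pomc, Tbx19, Neurod1, Crhr1 and Pcsk1 had tested probes, while the Pitx1 probe was above background on 0 arrays. Of 25 probes for 15 markers of other pituitary, stromal, blood, endothelial and glial cells, 24 were never above background, and the probe of Cga was so on 1 array. Of the mouse Pam probes, ILMN_1236965 was above background on 0 arrays. The other, ILMN_2626294, differed by 0.35 between the media (SE 0.18, limma, adjusted p = 0.285), but whether it reads the rat transgene is unknown here.

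Whether these transcripts differed once the transgene was to be induced was read from the contrast of doxycycline with control medium. None of the 16 tested member probes passed at an adjusted p of 0.05 (limma with clone as a block, Benjamini-Hochberg over all tested probes). Over all tested probes 0.314% passed, 0.189% higher and 0.124% lower with doxycycline. At an unadjusted p under 0.05 there were 6 member probes, 5 of them higher (Mt2, Mt3, Mtf1, Slc39a1 and Slc39a7 with 1 probe each) and 1 lower (Slc30a5). By that rule 22.3% of all tested probes differed, 11.6% higher and 10.6% lower. The median difference of the member probes was 0.13, and that of all tested probes was -0.01. Member probes of 1 gene share a transcript and are not independent of each other. In the sentences that follow, the values of each medium are in the order clone 14, clone 6_1, clone 6_2.

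**Figure D1:**
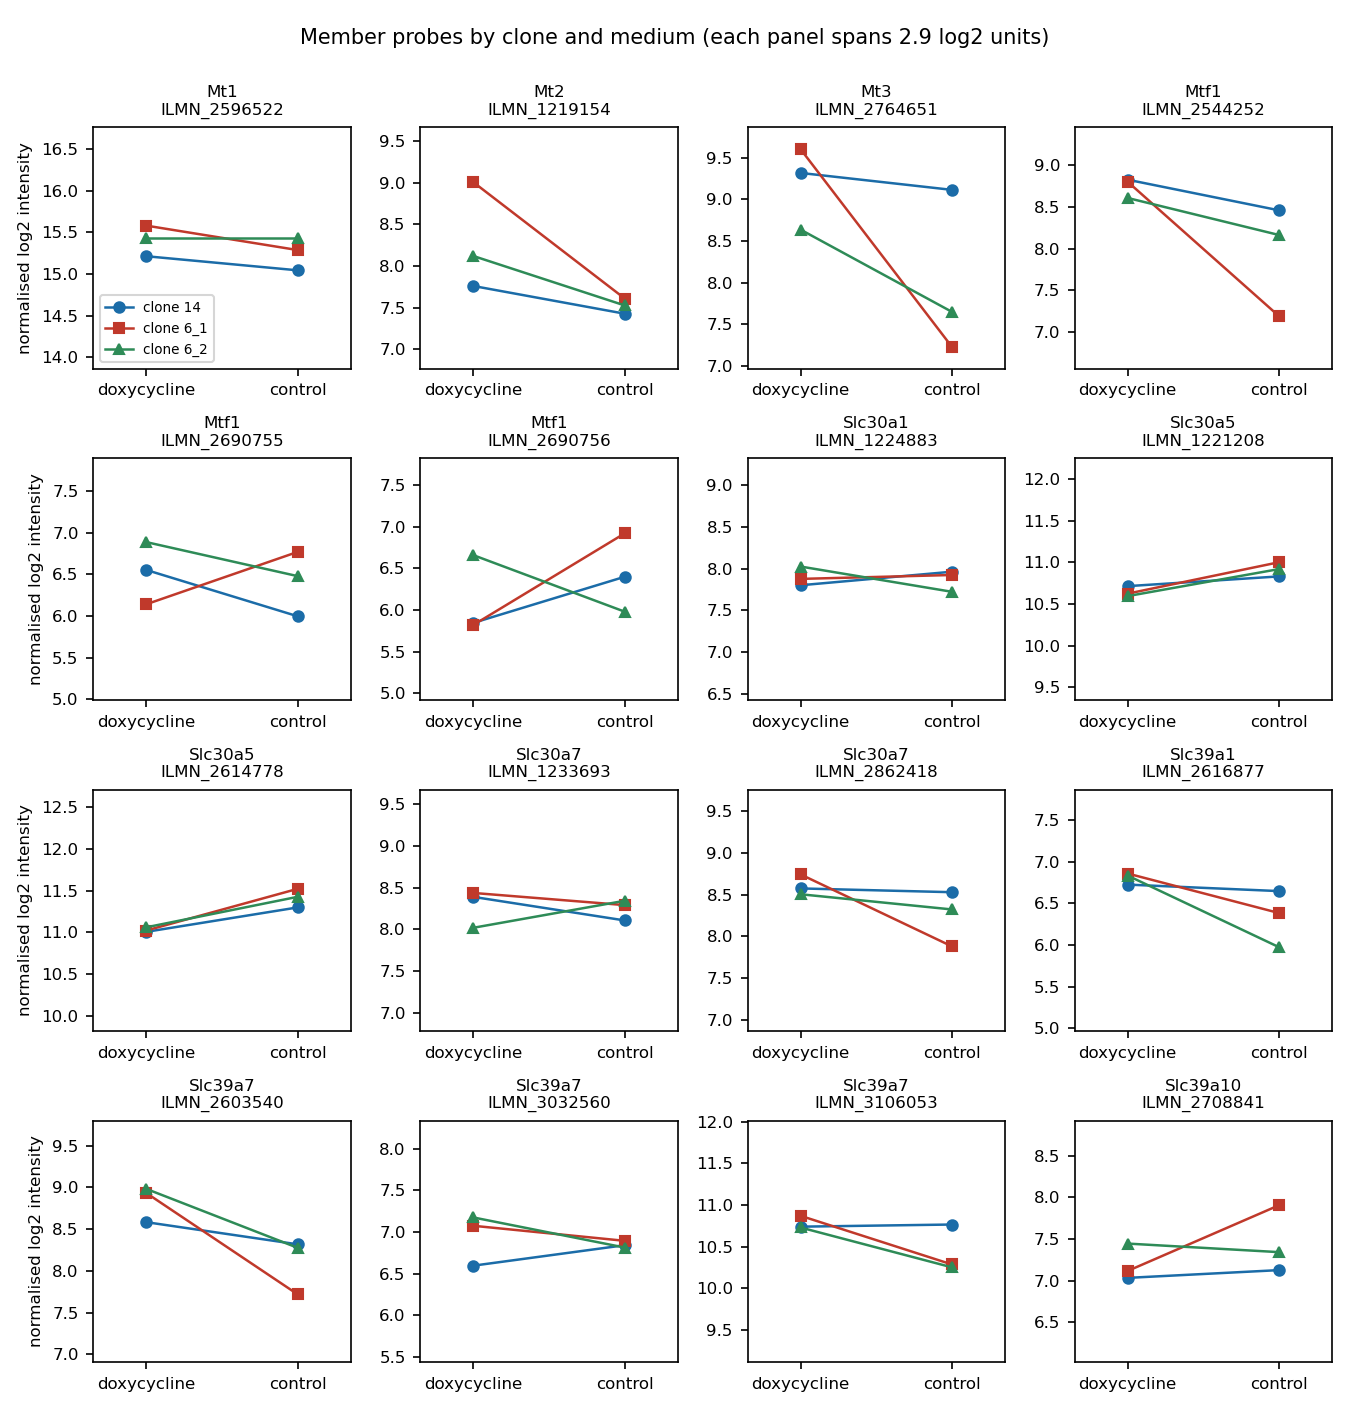
Normalised log2 intensity of the 16 tested member probes in each clone, with doxycycline at the left and control medium at the right of each panel and a line for each clone. All panels span the same number of log2 units. Mt3 and the Mtf1 probe ILMN_2544252 have their lowest value in the control culture of clone 6_1, while both Slc30a5 probes are lower with doxycycline in each clone.

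Mt1, the main inducible metallothionein together with Mt2, was close to the top of the arrays' range. Its probe (ILMN_2596522) read 15.21, 15.58 and 15.43 with doxycycline, against 15.04, 15.29 and 15.43 in control medium. The groups overlapped, and clone 6_2 had the same value in both media because Mt1 held the same rank on both of its arrays, with 48 probes brighter. The difference was 0.15 (SE 0.17, 95% interval -0.23 to 0.53, limma, adjusted p = 0.603). Before normalisation the scanner signals were 45043, 53024 and 45341 with doxycycline, against 38445, 33441 and 34687 in control medium. On that scale all doxycycline arrays lay above all control arrays, by 1.17-fold in clone 14, 1.59-fold in clone 6_1 and 1.31-fold in clone 6_2. Differences between whole arrays are not removed on that scale, and the share of all probes with this pattern was not counted there. The authors' deposited table gave 37914, 47822 and 43105 with doxycycline and 33818, 40667 and 42993 in control medium, again with overlap. With arrays scaled by their median instead of by quantiles the difference was 0.40 (adjusted p = 0.237), while the median of all tested probes was -0.09 there. The Mt1 signal stood at 47.4% to 74.8% of the brightest probe on its array.

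**Figure D2:**
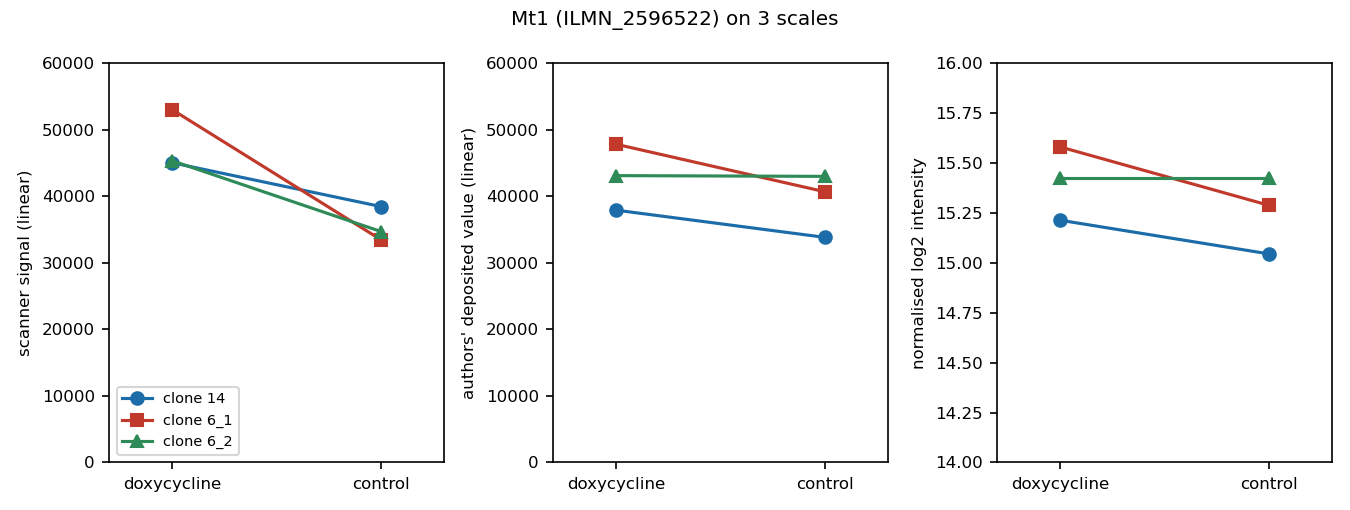
Mt1 on 3 scales, with doxycycline at the left and control medium at the right: scanner signal, the authors' deposited value (both linear, from 0) and normalised log2 intensity (an axis that does not start at 0). Scanner signals are higher with doxycycline in all 3 clones, whereas the groups overlap on both normalised scales.

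Mt2, which encodes a metallothionein closely related to that of Mt1, was even between clones in control medium. It read 7.76, 9.004 and 8.12 with doxycycline, against 7.43, 7.61 and 7.53 in control medium. All doxycycline arrays were above all control arrays, and the control cultures lay within 0.09 (SD) of their mean of 7.52 whereas the doxycycline cultures spread by 0.64 (SD, n = 3 arrays each) around 8.29. The difference was 0.77 (SE 0.22, 95% interval 0.27 to 1.28), or 1.71-fold, and did not pass over all probes (limma, adjusted p = 0.119). By clone the doxycycline culture was 1.26-fold, 2.63-fold and 1.51-fold above its control culture. Of all tested probes 2.24% had a mean difference at least as high.

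Mt3, a metallothionein of brain and some endocrine cells that responds little to metals, had the highest mean difference of the members. It read 9.32, 9.60 and 8.64 with doxycycline, against 9.11, 7.23 and 7.65 in control medium. The groups overlapped, because the control culture of clone 14 was already higher than the doxycycline culture of clone 6_2. The difference was 1.19 (SE 0.34, 95% interval 0.41 to 1.96), or 2.28-fold, with 0.27% of tested probes at least as high (limma, adjusted p = 0.119). In clones 14, 6_1 and 6_2 the ratio of doxycycline to control was 1.15, 5.18 and 1.98. In clone 6_1 only 0.0592% of tested probes differed by as much upward, against 25.8% in clone 14 and 0.917% in clone 6_2. Mt3 was thus the member with the widest spread in control medium (SD 0.99, against 0.50 with doxycycline). Mt4, the metallothionein of stratified squamous epithelium, was above background on 0 arrays.

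Mtf1, the metal-sensing activator itself, had 3 tested probes that did not move together. Probe ILMN_2544252, annotated to the cDNA AK012676, read 8.83, 8.80 and 8.61 with doxycycline, against 8.46, 7.19 and 8.16 in control medium. On this probe all doxycycline arrays were above all control arrays, with a difference of 0.81 (SE 0.25, 95% interval 0.24 to 1.38, limma, adjusted p = 0.133). The other two Mtf1 probes are annotated to the RefSeq transcript NM_008636 and lay near background. ILMN_2690755 read 6.55, 6.14 and 6.89 with doxycycline, against 6.00, 6.77 and 6.48 in control medium, and was above background on 2 of 3 doxycycline and 3 of 3 control arrays. ILMN_2690756 read 5.85, 5.82 and 6.66 with doxycycline, against 6.40, 6.92 and 5.98 in control medium, and was above background on 1 of 3 doxycycline and 3 of 3 control arrays. Both were lower with doxycycline in clone 6_1, by -0.63 and -1.10, the clone in which the AK012676 probe was higher by 1.61. Their mean differences were 0.11 (95% interval -0.43 to 0.66) and -0.32 (-0.997 to 0.35), with limma adjusted p of 0.801 and 0.531. Across the 6 arrays, which all 3 probes share, the AK012676 probe had a Pearson r of -0.38 with ILMN_2690755 and -0.70 with ILMN_2690756. Averaged over its 3 probes the Mtf1 difference was 0.20 (limma on gene means, adjusted p = 0.485). Which transcripts each probe reads was not tested.

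The zinc exporters of the Slc30a family showed small differences. Slc30a1, which exports zinc across the plasma membrane and is a known MTF1 target in the mouse, read 7.80, 7.88 and 8.03 with doxycycline, against 7.96, 7.92 and 7.72 in control medium. Its groups overlapped and its clones disagreed in sign, with a mean difference of 0.03 (95% interval -0.37 to 0.43, limma, adjusted p = 0.930). Slc30a5 loads zinc into the early secretory pathway and was lower with doxycycline in each clone on both of its probes. ILMN_2614778 read 11.005, 11.02 and 11.06 with doxycycline, against 11.30, 11.52 and 11.42 in control medium, a difference of -0.39 (SE 0.17, 95% interval -0.76 to -0.01, limma, adjusted p = 0.215). ILMN_1221208 read 10.71, 10.62 and 10.59 with doxycycline, against 10.83, 11.0005 and 10.92 in control medium, a difference of -0.27 (SE 0.17, 95% interval -0.65 to 0.11, limma, adjusted p = 0.351). On both probes all doxycycline arrays were below all control arrays, as in 12.5% of all tested probes, and the probes had an r of 0.95 over the arrays. Without clone 6_1 the differences were -0.33 for ILMN_2614778 and -0.22 for ILMN_1221208.

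Slc30a7, a further transporter that brings zinc into the Golgi, was read by 2 tested probes on the same RefSeq transcript NM_023214. ILMN_2862418 read 8.57, 8.74 and 8.50 with doxycycline, against 8.53, 7.88 and 8.32 in control medium. It was higher in each clone, by 0.05, 0.86 and 0.18, with overlap of the groups and a mean of 0.36 (95% interval -0.09 to 0.82, limma, adjusted p = 0.310). ILMN_1233693 read 8.39, 8.44 and 8.02 with doxycycline, against 8.11, 8.29 and 8.34 in control medium. On this probe clone 6_2 was lower by -0.32 and the mean was 0.03 (95% interval -0.38 to 0.45, limma, adjusted p = 0.925). The probes had an r of 0.06 over the 6 arrays, so the gene has no agreed direction here.

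The importers of the Slc39a family were read by 5 probes. Slc39a7, which releases zinc from the endoplasmic reticulum and Golgi into the cytosol, was measured 3 times on the transcript NM_008202. Its probe ILMN_2603540 read 8.58, 8.93 and 8.98 with doxycycline, against 8.32, 7.72 and 8.28 in control medium, with all doxycycline arrays above all control arrays. The difference was 0.73 (SE 0.21, 95% interval 0.26 to 1.201), or 1.66-fold, and did not pass over all probes (limma, adjusted p = 0.119). The brighter probe ILMN_3106053 read 10.74, 10.87 and 10.73 with doxycycline, against 10.77, 10.29 and 10.25 in control medium. It was higher by 0.58 in clone 6_1 and 0.48 in clone 6_2 but not in clone 14 (-0.03), with a mean of 0.35 (95% interval -0.08 to 0.77, limma, adjusted p = 0.296). The dimmest, ILMN_3032560, read 6.60, 7.07 and 7.17 with doxycycline, against 6.84, 6.89 and 6.81 in control medium, with a mean of 0.10 (95% interval -0.32 to 0.52, limma, adjusted p = 0.769). All 3 probes were higher in clones 6_1 and 6_2, and 2 of 3 were lower in clone 14. Averaged over the probes the difference was 0.39 (limma on gene means, adjusted p = 0.232).

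Slc39a1, a zinc importer of the plasma membrane, was dim but above background on all 6 arrays. It read 6.73, 6.86 and 6.83 with doxycycline, against 6.65, 6.38 and 5.97 in control medium. All doxycycline arrays were above all control arrays, with a difference of 0.47 (SE 0.19, 95% interval 0.03 to 0.91, limma, adjusted p = 0.205). The difference was largest in clone 6_2, at 0.86, and the mean was 0.28 without clone 6_2 and 0.47 without clone 6_1. Slc39a10, an importer whose gene MTF1 represses in the mouse, read 7.03, 7.12 and 7.44 with doxycycline, against 7.13, 7.90 and 7.34 in control medium. Its groups overlapped, and its mean of -0.26 (95% interval -0.73 to 0.21, limma, adjusted p = 0.471) stood beside -0.79 in clone 6_1, -0.09 in clone 14 and 0.10 in clone 6_2.

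**Figure D3:**
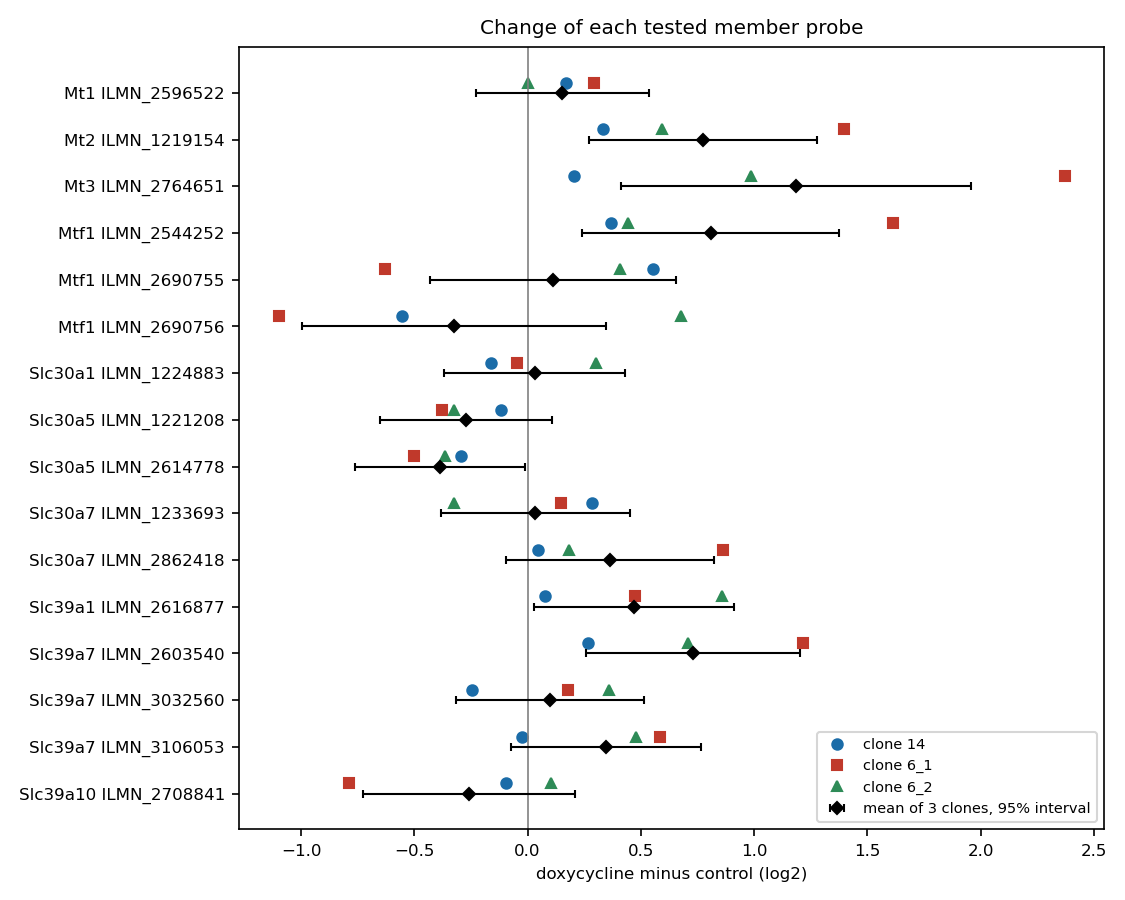
Difference between doxycycline and control medium (log2) for each tested member probe: coloured points are the 3 clones, and black diamonds the limma mean with its 95% interval. Clone 6_1 is the point farthest to the right for Mt2, Mt3, the Mtf1 probe ILMN_2544252 and the Slc39a7 probe ILMN_2603540, and the farthest to the left for the other two Mtf1 probes and Slc39a10.

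Among the 16 tested probes 6 were higher with doxycycline in all 3 clones and 2 were lower in all 3, against 23.9% and 24.7% of all tested probes. All doxycycline arrays were above all control arrays for 4 probes (Mt2, Mtf1 ILMN_2544252, Slc39a1 and Slc39a7 ILMN_2603540), a pattern that 12.1% of all tested probes had, and below them for the 2 of Slc30a5. The clones differed in the size of their differences. By clone, the median over the member probes was 0.06, 0.24 and 0.38 in the order above, and the spread over these probes was 0.29, 0.96 and 0.42 (SD). The same spread over all tested probes was 0.34, 0.66 and 0.37. Without clone 6_1 the mean differences were 0.46 for Mt2, 0.59 for Mt3, 0.41 for the Mtf1 probe ILMN_2544252, 0.49 for the Slc39a7 probe ILMN_2603540, 0.11 for the Slc30a7 probe ILMN_2862418 and 0.00 for Slc39a10. The first principal component, on which the control array of clone 6_1 stands apart, held 56.2% of the variance of the tested probes. In each clone the doxycycline array also lay lower on it than the control array. How many of all tested probes had a high r with it was not counted. Over the 6 arrays the values of Mt3, of Mtf1 ILMN_2544252 and of Slc30a7 ILMN_2862418 had an r of -0.94, -0.98 and -0.95 with this component. It was 0.92 for Slc39a10, 0.90 and 0.81 for the Slc30a5 probes ILMN_2614778 and ILMN_1221208, and -0.87 and -0.81 for the Slc39a7 probes ILMN_3106053 and ILMN_2603540. For Slc39a1 it was -0.66 and for Mt2 -0.41, while Mt1 and Slc30a1 were at 0.01 each. The remaining 4 probes lay between -0.04 and 0.67. The part of the control array of clone 6_1 in these differences was not tested beyond leaving out arrays. Either the whole clone was left out, or that array alone in a fit without pairing by clone.

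Without clone 14 the difference of Mt3 was 1.68, and 4 member probes passed (Mt2, Mt3, Mtf1 ILMN_2544252 and Slc39a7 ILMN_2603540, limma, adjusted p from 6.16e-06 to 0.0318). Without clone 6_2 Mt3 and Mtf1 ILMN_2544252 passed (limma, adjusted p = 0.00375 and 0.0441). In both of these fits limma gave every probe one common variance, and 717 and 400 probes of the table passed.

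**Figure D4:**
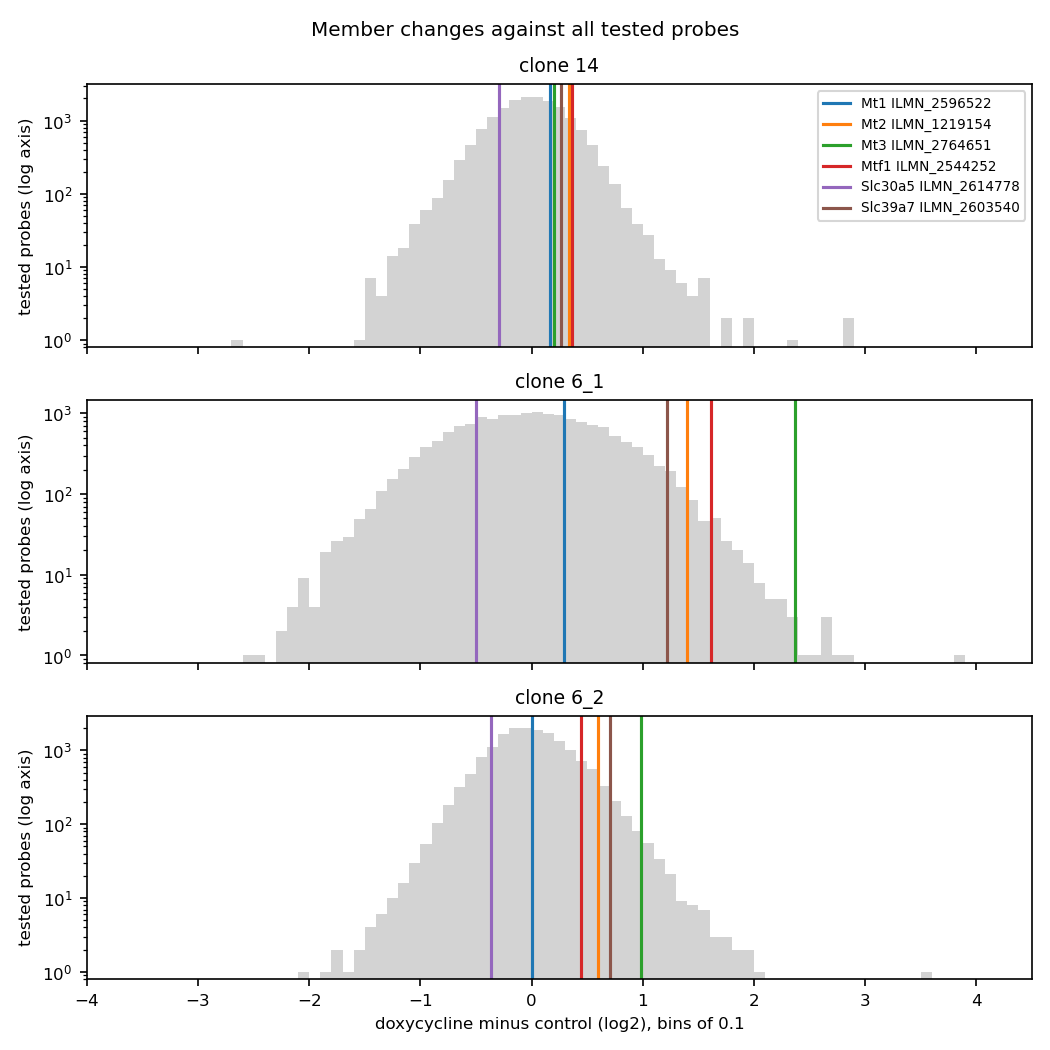
Differences between doxycycline and control medium (log2) in each clone: grey bars count all 16902 tested probes on a log axis, and coloured lines mark 6 member probes. Mt3 lies at 2.37 in clone 6_1, where 0.0592% of probes are as high, and at 0.20 in clone 14, inside the bulk of probes.

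The clones were also compared with each other over both media. None of the 16 member probes passed between clones 14 and 6_1, 14 and 6_2 or 6_1 and 6_2, where 0.136%, 0.142% and 0% of all tested probes did (limma). At an unadjusted p under 0.05 (limma) there were 1, 1 and 0 of the 16 member probes, against 2634, 1807 and 452 of all 16902 tested probes. With 16 member probes, such small counts cannot show a share that differs from that of all tested probes. Mt2 was the member counted in the first contrast, at -0.71 for clone 14 minus clone 6_1 (SE 0.27, limma, adjusted p = 0.263). Mt3 was the one in the second, at 1.07 for clone 14 minus clone 6_2 (SE 0.42, limma, adjusted p = 0.399). Averaged over the media Mt3 read 9.21, 8.42 and 8.14 in the clone order above, whereas Mt2 read 7.59, 8.31 and 7.82. Averaged in this way the 2 genes had opposite orders between clones 14 and 6_1. With doxycycline both were higher in clone 6_1 (Mt2 9.004 against 7.76, Mt3 9.60 against 9.32). In control medium Mt2 was also higher in clone 6_1 (7.61 against 7.43), but Mt3 was lower (7.23 against 9.11). The opposite order thus rests on the control medium, where the array of clone 6_1 stood apart on the first principal component. These differences were not tested.

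Other genes of zinc transport, metal response and glucocorticoid response were taken from 3 lists chosen with earlier results of these data known. Of 19 further Slc30a, Slc39a and Tmem163 genes 17 had a probe and 7 a tested probe, while 10 were above background on 0 arrays, among them the granule zinc transporter Slc30a8 of pancreatic islets. Of the 7 tested probes 2 were higher and 5 lower, with a median difference of -0.07 and 0 past the test in either direction (limma, also 0 at an unadjusted p under 0.05). Slc39a9 read 7.85, 7.79 and 7.92 with doxycycline, against 7.55, 7.71 and 7.57 in control medium, a difference of 0.25 (SE 0.17, limma, adjusted p = 0.398) with all doxycycline arrays above. Slc39a6, another importer, read 12.22, 12.63 and 12.75 with doxycycline, against 12.62, 12.85 and 12.89 in control medium, lower in each clone at -0.25 (SE 0.17, limma, adjusted p = 0.382). Slc39a11 and Slc39a13 differed by -0.17 and 0.21 (limma, adjusted p = 0.541 and 0.525). Slc39a13 was at -0.11, 0.61 and 0.13 by clone, and at 0.011 without clone 6_1.

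Of the metal and oxidative stress list, which holds genes linked to MTF1 or to thiol defence, 15 genes had a probe and 12 a tested probe. The 16 tested probes were 5 higher and 11 lower, with a median of -0.15. None passed (limma), and at an unadjusted p under 0.05 there was 1 higher and 2 lower. The higher one was Selenow, which encodes the small redox selenoprotein W. It read 10.90, 11.38 and 10.71 with doxycycline, against 10.50, 8.87 and 10.05 in control medium, with all doxycycline arrays above all control arrays. Its difference of 1.19 (SE 0.35, limma, adjusted p = 0.125) stood at 0.40, 2.51 and 0.66 by clone, and at 0.53 without clone 6_1. Without clone 14 or 6_2 it was 1.59 or 1.46 and passed (limma, adjusted p = 2.34e-05 and 0.000589). Both of those fits keep clone 6_1, and in them, as described above, limma gave every probe a common variance. The iron exporter Slc40a1 read 10.16, 10.39 and 10.52 with doxycycline, against 10.41, 11.43 and 10.95 in control medium, a difference of -0.58 (SE 0.20, limma, adjusted p = 0.157), or -0.34 without clone 6_1. Ndrg1 differed by -0.43 on ILMN_2646166, with all doxycycline arrays below all control arrays (SE 0.18, limma, adjusted p = 0.215). By clone this probe differed by -0.23, -0.78 and -0.27, and by -0.25 on average without clone 6_1. The other tested Ndrg1 probe, ILMN_1250195, differed by -0.32, also with all doxycycline arrays below all control arrays (SE 0.17, limma, adjusted p = 0.286). By clone it differed by -0.50, -0.18 and -0.29, so clone 6_1 differed most on the first probe and least on this one. Gclc, whose enzyme starts glutathione synthesis, differed by -0.43 (SE 0.23, limma, adjusted p = 0.285), and by -0.16 without clone 6_1.

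Metallothionein genes also respond to glucocorticoids, so genes of that response were read alongside. Of 10 genes 7 had 10 tested probes, 3 higher and 7 lower with a median of -0.09, and none passed (limma, 2 higher and 1 lower at an unadjusted p under 0.05). The kinase gene Sgk1 read 12.25, 12.33 and 12.25 with doxycycline, against 12.77, 12.96 and 12.92 in control medium, at -0.61 (SE 0.16, limma, adjusted p = 0.111). It was lower by a similar amount in each clone, from -0.52 to -0.67, unlike Mt2 and Mt3. The clock gene Per1 was higher on both tested probes, at 0.43 (SE 0.17) and 0.43 (SE 0.18), with all doxycycline arrays above all control arrays (limma, adjusted p = 0.188 and 0.206). The receptor gene Nr3c1 differed by -0.44 (SE 0.25, limma, adjusted p = 0.308), and by -0.06 without clone 6_1.

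The probes most like the metallothioneins over the 6 arrays were found by Pearson r with the mean centred profile of Mt1, Mt2 and Mt3. That profile stood at 0.15, 0.79 and 0.12 with doxycycline, against -0.08, -0.57 and -0.41 in control medium. The 5 highest were the histone H2A genes H2ac10 at 0.994, H2ac12 at 0.992 and H2ac20 at 0.991, Smim13 at 0.992 and Sec61g, a subunit of the translocon of the endoplasmic reticulum, at 0.990. The 3 lowest were Clk1, a kinase of splicing factors, at -0.998, and Wwp2 and Cfap20dc at -0.996 each. With median scaling the lowest were weaker, with Clk1 at -0.768, Cfap20dc at -0.864 and Wwp2 at -0.935, whereas the 5 highest stayed between 0.980 and 0.994. Histone H2A genes resemble each other closely, and which copy each probe reads is uncertain. With 6 arrays and 16902 probes such values describe these arrays only. Among the members the r with this profile, which Mt1, Mt2 and Mt3 themselves make up, was 0.44 for Mt1, 0.87 for Mt2 and 0.88 for Mt3. The r was 0.80 for Mtf1 ILMN_2544252, 0.13 for Slc30a1 and -0.87 for both Slc30a5 probes.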

How the data were processed

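Total RNA from 6 cultures was labelled with biotin and hybridised to 1 bead array each, per the labels' protocols. Per the file headers, the deposited scanner table pairs a linear intensity, without normalisation, with a detection p-value for each probe and array. Per the submitters' processing notes, the software was GenomeStudio and BeadStudio. A second deposited table, of the authors' processed intensity values, had array medians of 134.1 to 134.2 and the rank order of the scanner signals (Spearman 1). How they were normalised is not stated in the labels or headers. There were 0 columns of other series.

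Scanner signals were processed with limma 3.58.1 in R 4.3.3: normexp with the background estimated from the detection p-values and an offset of 16, quantile normalisation and log2. The offset shrinks differences of dim probes. Probes with a detection p under 0.01 on at least 3 arrays entered 1 limma fit (lmFit, eBayes) with medium and clone as terms. Its residual degrees of freedom were 2 and its prior degrees of freedom 6.95, and two-sided p-values were adjusted by Benjamini-Hochberg over all 16902. Intervals use the same variance. Per the treatment protocol every clone went into both media, hence the block. Deviations from the group means correlated at 0.538, -0.021 and 0.139 between the arrays of clones 14, 6_1 and 6_2. The code was tested on simulated data.

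Of the 45281 probes 34885 had 1 gene symbol in the platform annotation, 18 several and 10378 none. All 10 member symbols matched the GRCm38.p6 RefSeq table by Entrez number. Named were all member probes, the 4 probes of smallest p from each of the 3 lists, and the 5 most and 3 least alike by Pearson r over the arrays with the mean centred Mt1, Mt2 and Mt3 levels. Members and lists were chosen with earlier results of these data known. Mt4, Slc30a8, Cga and Pitx1 were named for their absence and Pam as the transgene's gene. The Ndrg1 probe ILMN_1250195 was given beside the other probe of its gene and is not among the named probes counted below. Alternatives were median scaling, cyclic loess, an offset of 50, no background correction, the authors' values, 3 other filters, no block, each clone left out, and gene means. No slide or scan information was used.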

Additional observations from a re-analysis of the deposited data

Results flagged for a closer look

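In 9 of 28 named probes with a tested difference, 7 of them members, the clones differed in opposite directions between doxycycline and control medium. Clones of opposite sign were found in 51.4% of all tested probes, so 7 of the 16 tested member probes is no more than the background. Each clone holds 1 pair of cultures, so the difference between clones was not tested. The highest clone difference minus the lowest, on the log2 scale, was 1.18 for Mtf1 ILMN_2690755 and 1.78 for Mtf1 ILMN_2690756, the 2 dim probes on NM_008636. For the zinc exporters it was 0.466 for Slc30a1 and 0.607 for Slc30a7 ILMN_1233693. For the importers it was 0.607 for Slc39a7 ILMN_3032560, 0.609 for Slc39a7 ILMN_3106053, 0.891 for Slc39a10 and 0.722 for Slc39a13. For Gclc it was 1.15, with 0.17 in clone 14 and -0.98 in clone 6_1.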

How the results depend on the processing

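Between the media, 53 probes passed as reported. The count was 165 with median scaling (75 higher, 90 lower, against 32 and 21), 108 with an offset of 50, 1 with no filter, and 78 to 717 with a clone left out. With no replicate block, that is without pairing by clone, 33 probes passed and 0 member probes, and 1 probe when the control array of clone 6_1 was left out as well. Leaving out clones gave 0 to 4 member probes. Between clones 14 and 6_1 the count of 23 became 206 with median scaling, 45 with an offset of 50, 6 with no filter and 308 without clone 6_2. Between clones 14 and 6_2 the count of 24 became 82 with median scaling, 5 with no filter and 1032 without clone 6_1. Between clones 6_1 and 6_2 it was 2 without clone 14. With median scaling Slc30a1 was at -0.074, Slc30a7 ILMN_1233693 at -0.067 and Slc39a7 ILMN_3032560 at -0.011. Leaving out clones gave -0.11 to 0.48 for Mtf1 ILMN_2690755, -0.83 to 0.063 for Mtf1 ILMN_2690756, -0.10 to 0.13 for Slc30a1, -0.089 to 0.21 for Slc30a7 ILMN_1233693, -0.033 to 0.27 for Slc39a7 ILMN_3032560 and -0.44 to 0.0048 for Slc39a10. The mean over the Mtf1 probes was 0.20, against -0.32 for ILMN_2690756 alone. The cause of these shifts was not tested. Of the alternative differences of named probes, 352 kept direction and side of the threshold, 8 passed it and 12 turned. Median scaling moved the likeness of Clk1 to the metallothionein profile from -0.998 to -0.768. Both NM_008636 probes of Mtf1 were dim and not above background on every array.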
